A study of Rattus norvegicus with 9 samples.

Results

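Genes of endothelial cells and of the angiopoietin system were followed through whole-kidney RNA of 9 rats in 3 groups of 3 rats. The 10 genes named were Cdh5 and Pecam1 of endothelial junctions, the VEGF receptor genes Kdr and Flt1, the angiopoietin receptor genes Tek and Tie1 with their ligand gene Angpt1, and the capillary genes Ehd3, Emcn and Plvap. They were selected by symbol, and 9 of the 10 were found among 36267 features of the gene table. No row carried the symbol Pecam1, which is not analysed here. All 9 genes found were among the 16731 features tested.

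Rats weighed 180 to 200 g. Rats of the icariin group received icariin, a flavonoid glycoside of Epimedium plants, at 100 mg/kg daily for 3 days and then the contrast protocol. Rats with contrast-induced acute kidney injury (CIAKI) went through the contrast protocol alone. It consisted of the diuretic furosemide by the stomach (200 mg/kg), 6 h of dehydration and an intravenous dose of the iodinated X-ray contrast medium iopromide (370 mg I/mL, 15 mL/kg). Control rats were untreated, so that diuretic, dehydration and contrast medium cannot be told apart, and no group had icariin alone. Values are CPM, reads scaled to the same total in each library, and 1 CPM stood for 64.4 to 90.4 reads.

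Endothelial cells line all vessels of the kidney, from arteries through the fenestrated capillaries of the glomerulus to the capillaries around the tubules. VEGF-A from podocytes and tubules acts on them mainly through VEGFR2 (Kdr), while VEGFR1 (Flt1) binds the same ligand tightly, signals weakly and is also made as a soluble decoy. Angiopoietin 1 (Angpt1), made by cells around the vessel, activates the receptor TIE2 (Tek) and thereby tightens the vessel wall. Angiopoietin 2 (Angpt2) acts on TIE2 as a partial agonist or antagonist, and TIE1 (Tie1) has no angiopoietin ligand of its own but modulates TIE2 at the cell surface.

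The promoters of Kdr, Tie1 and Ehd3, whose RNA was lower in CIAKI kidneys, and of Flt1, whose RNA was higher, are shown so that the start regions of genes that moved in opposite directions can be compared. The sequences are RefSeq's for the rat build GRCr8, 250 bases before to 50 after the annotated start, 5′ to 3′, and capitals mark matches on either strand to the motifs searched.
Kdr (chr14:32571813-32572112, plus strand): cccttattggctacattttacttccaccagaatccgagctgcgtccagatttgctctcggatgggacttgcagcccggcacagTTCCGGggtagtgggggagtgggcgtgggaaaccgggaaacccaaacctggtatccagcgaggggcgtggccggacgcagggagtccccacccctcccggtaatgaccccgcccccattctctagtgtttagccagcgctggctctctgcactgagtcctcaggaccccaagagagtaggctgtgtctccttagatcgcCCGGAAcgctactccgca
Tie1 (chr5:137304932-137305231, minus strand): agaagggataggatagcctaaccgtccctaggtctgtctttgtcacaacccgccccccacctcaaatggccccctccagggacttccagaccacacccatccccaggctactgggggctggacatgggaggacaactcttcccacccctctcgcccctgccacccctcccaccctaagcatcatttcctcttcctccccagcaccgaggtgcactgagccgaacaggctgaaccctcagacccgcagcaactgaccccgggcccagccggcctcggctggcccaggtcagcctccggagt
Ehd3 (chr6:27417396-27417695, minus strand): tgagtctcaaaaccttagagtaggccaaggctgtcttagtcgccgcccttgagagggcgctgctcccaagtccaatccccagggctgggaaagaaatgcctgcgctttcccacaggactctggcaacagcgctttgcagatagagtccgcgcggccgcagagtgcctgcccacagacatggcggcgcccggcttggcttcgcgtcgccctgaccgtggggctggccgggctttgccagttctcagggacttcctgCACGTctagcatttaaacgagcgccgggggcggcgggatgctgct
Flt1 (chr12:12333180-12333479, plus strand): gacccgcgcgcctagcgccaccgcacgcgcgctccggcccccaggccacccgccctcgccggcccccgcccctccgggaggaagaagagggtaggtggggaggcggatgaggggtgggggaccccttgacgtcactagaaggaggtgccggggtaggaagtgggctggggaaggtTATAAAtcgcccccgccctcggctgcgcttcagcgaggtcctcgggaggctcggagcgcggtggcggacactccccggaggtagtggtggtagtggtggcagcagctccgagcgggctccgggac

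The RefSeq promoter table held 6 of the 9 genes, the 4 shown with Emcn and Plvap, and not Cdh5, Tek and Angpt1. The ETS core CCGGAA was in the promoter of Kdr and in 15.0% of all 33469 promoters of that length. A further ETS core, ACAGGAA, was in that of Emcn and in 8.49% of all. The hypoxia response core ACGTG was in that of Ehd3 and in 19.2% of all. The TATA box TATAAA was in those of Flt1 and Plvap and in 14.2% of all. The forkhead core TGTTTAC (3.78% of all) and the GATA core AGATAA (11.6% of all) were in none of the 6. These are matches of letters, counted on both strands with overlaps between motifs allowed, and not binding sites.

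CIAKI against control asked what the contrast protocol did to the vessel genes. In CIAKI kidneys 5 of the 9 genes fell (Angpt1, Tie1, Ehd3, Kdr and Cdh5), Flt1 rose, and Tek, Emcn and Plvap did not pass the test. By limma on log2(CPM + 1) with Benjamini-Hochberg adjusted p below 0.05, 41.3% of all 16731 features were called in this comparison (20.8% higher and 20.5% lower). The median log2 fold change of the 9 genes was -0.58, against 0.00 for all features. Fold changes refer to CPM + 1 in log2 units, which understates those of scarce genes, and standard errors (SE) come from the fit across all features. In whole-kidney RNA, fewer endothelial cells and less RNA per cell cannot be told apart.

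**Figure D1:**
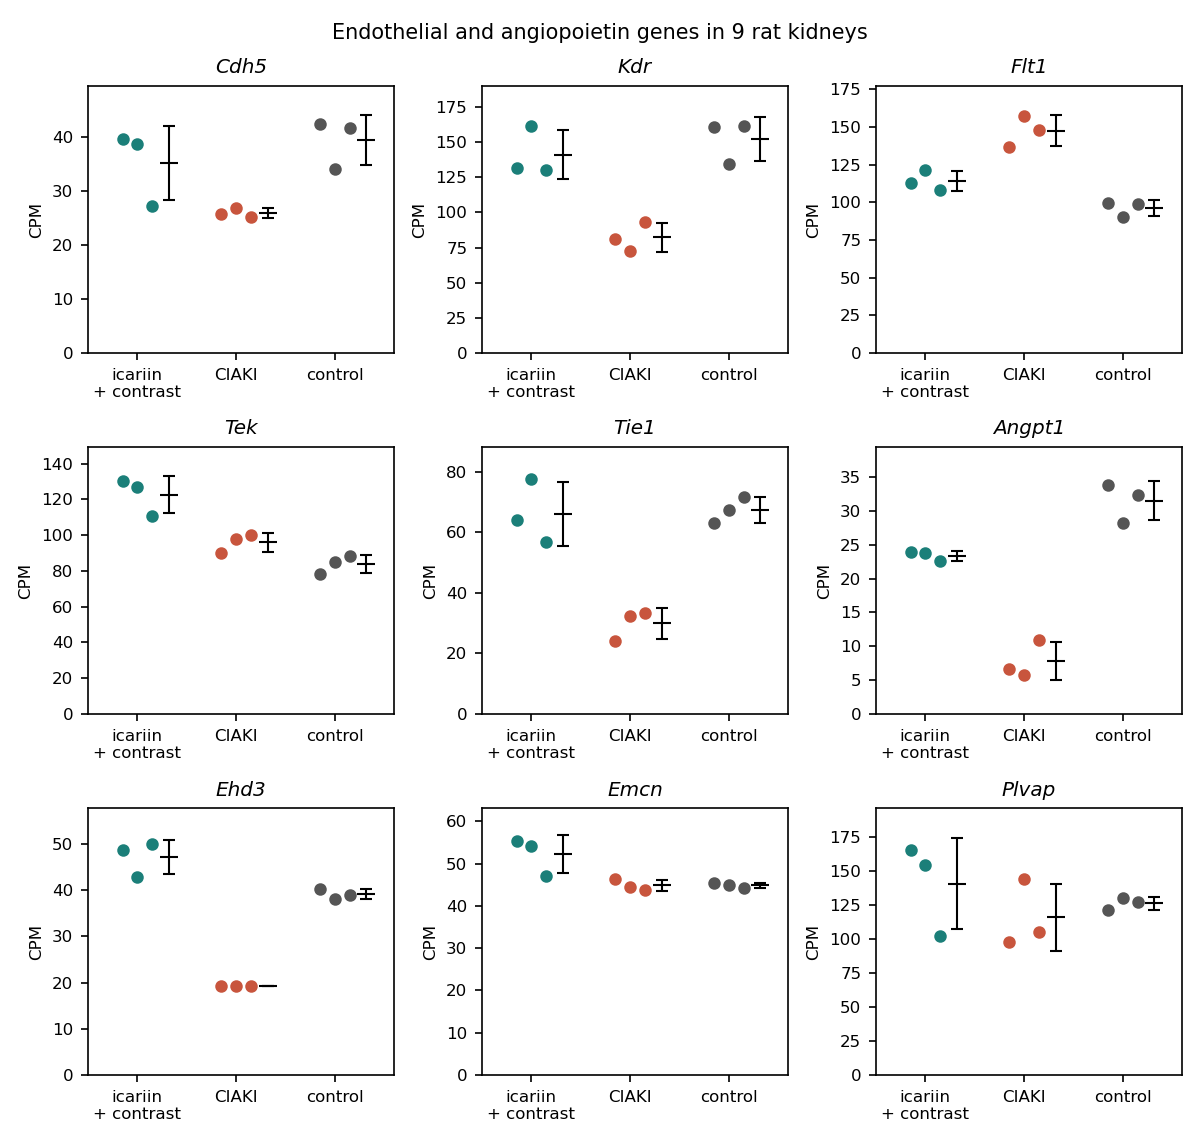
CPM of each of the 9 genes (y axis, starting at 0) in the 3 icariin, 3 CIAKI and 3 control kidneys (x axis). Points are single kidneys and the bar beside them is the mean with its SD. Angpt1, Tie1, Ehd3 and Kdr lie lowest in CIAKI kidneys, Flt1 lies highest there, and Tek is highest in icariin kidneys.

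Angpt1, the activating ligand, had the largest fold change of the 9 genes. It stood at 6.71, 5.81 and 11 CPM in the 3 CIAKI kidneys, against 33.8, 28.3 and 32.4 CPM in control kidneys. Every CIAKI kidney lay far below every control kidney, and the CIAKI values still rested on 391 to 706 reads each. The log2 fold change was -1.92 (SE 0.19, adjusted p = 0.000128). Angpt2, the competing ligand, was scarce throughout: it had 4.29, 5.17 and 4.15 CPM in CIAKI kidneys and 5.08, 7.94 and 6.57 CPM in control kidneys. Its CIAKI kidneys overlapped its control kidneys, and its log2 fold change of -0.43 did not pass (SE 0.27, adjusted p = 0.239).

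The receptors of the system differed. Tie1 had 24.2, 32.3 and 33.3 CPM in CIAKI kidneys, against 63.0, 67.3 and 71.7 CPM in control kidneys, which did not overlap (log2 fold change -1.16, SE 0.14, adjusted p = 0.000391). Tek, which encodes TIE2, had 90.0, 97.9 and 100 CPM in CIAKI kidneys, against 78.4, 85.0 and 88.2 CPM in control kidneys. Each CIAKI value of Tek was above each control value, but the log2 fold change of 0.19 did not pass (95% interval 0.01 to 0.38, adjusted p = 0.0912). The ratio of Tie1 to Tek CPM was 0.269, 0.330 and 0.334 in CIAKI kidneys and 0.803, 0.792 and 0.813 in control kidneys. That within-library log2 difference changed by -1.35, and 3 libraries against 3 allow no exact two-sided permutation p below 0.1, the p found here (0.15 adjusted over 33 such values).

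The VEGF receptor genes moved in opposite directions. Kdr had 81.4, 72.6 and 93.3 CPM in CIAKI kidneys, against 161, 134 and 162 CPM in control kidneys (log2 fold change -0.88, SE 0.12, adjusted p = 0.000688). Flt1 had 137, 158 and 148 CPM in CIAKI kidneys, against 99.6, 90.0 and 99.1 CPM in control kidneys (0.61, SE 0.08, adjusted p = 0.000433). Neither gene's groups overlapped. The ratio of Flt1 to Kdr CPM was above 1 in each CIAKI kidney, at 1.68, 2.17 and 1.58, and below 1 in each control kidney, at 0.619, 0.670 and 0.613. The change of this log2 difference was 1.49 (exact permutation p = 0.1, adjusted p = 0.15). CPM are not scaled by gene length, so the change of such a ratio can be read and its distance from 1 cannot. The table does not separate the soluble from the membrane form of Flt1.

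**Figure D2:**
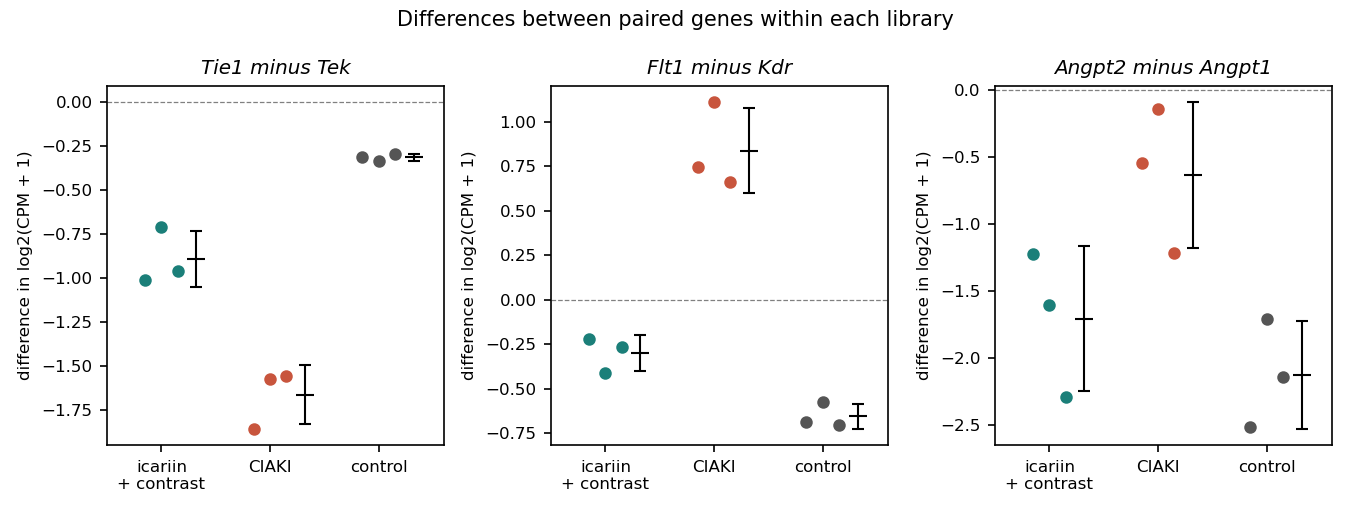
Within-library difference of log2(CPM + 1) (y axis) between Tie1 and Tek, Flt1 and Kdr, and Angpt2 and Angpt1 in icariin, CIAKI and control kidneys (x axis). Points are single kidneys with the mean and SD beside them. Icariin kidneys lie between CIAKI and control kidneys for Tie1 minus Tek and for Flt1 minus Kdr, with no overlap, while the Angpt2 minus Angpt1 values of icariin kidneys overlap those of control kidneys and end just below those of CIAKI kidneys.

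Of the junction gene Cdh5, which encodes VE-cadherin, CIAKI kidneys had 25.7, 27.0 and 25.3 CPM, against 42.5, 34.2 and 41.8 CPM in control kidneys. The groups did not overlap, and the log2 fold change was -0.58 (SE 0.14, adjusted p = 0.0115). Ehd3, an endocytic recycling ATPase that in mice marks the glomerular endothelium, was tightly grouped, at 19.3 CPM in each CIAKI kidney, against 40.2, 38.1 and 39.0 CPM in control kidneys. It fell by 0.98 on the log2 scale (SE 0.08, adjusted p = 5.1e-05), with the least spread among CIAKI kidneys of the 9 genes.

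The other capillary genes did not show this. Emcn, the sialoglycoprotein endomucin of capillaries and veins, had 46.3, 44.5 and 43.8 CPM in CIAKI kidneys and 45.4, 45.0 and 44.2 CPM in control kidneys. These ranges coincide, and the log2 fold change was 0.00 with a 95% interval of -0.17 to 0.17 (adjusted p = 0.990). Plvap, which forms the diaphragms of fenestrated capillaries, had 98.2, 144 and 105 CPM in CIAKI kidneys and 121, 130 and 128 CPM in control kidneys. It was scattered among CIAKI kidneys and overlapped the control range (log2 fold change -0.14, SE 0.19, adjusted p = 0.579).

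Setting each gene against Cdh5 in the same library divided the genes further. Relative to Cdh5, the log2 difference between CIAKI and control kidneys was -1.34 for Angpt1, -0.58 for Tie1, -0.40 for Ehd3 and -0.30 for Kdr. It was 1.19 for Flt1, 0.77 for Tek, 0.58 for Emcn and 0.44 for Plvap. CIAKI and control kidneys overlapped in the difference of Plvap (exact permutation p = 0.2) and not in those of the other genes. With the mean of the 24 tested pan-endothelial genes in place of Cdh5, each of these 8 differences had the same sign, at -1.55 for Angpt1, -0.78 for Tie1, -0.61 for Ehd3, -0.51 for Kdr, 0.98 for Flt1, 0.56 for Tek, 0.37 for Emcn and 0.23 for Plvap. The smallest exact permutation p that these 3 against 3 designs allow is 0.1, so they are given mainly as a description.

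Icariin against CIAKI asked what icariin given ahead of the contrast protocol changed. In icariin kidneys 5 of the 9 genes rose (Angpt1, Ehd3, Tie1, Kdr and Tek) and Flt1 fell, while Cdh5, Emcn and Plvap did not pass. Among all features 39.4% were called (19.2% higher and 20.2% lower). The median log2 fold change of the 9 genes was 0.41, against 0.02 for all features. This comparison shares its CIAKI kidneys with the comparison before, so the 2 sets of fold changes are not independent, and each is given by its own values.

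**Figure D3:**
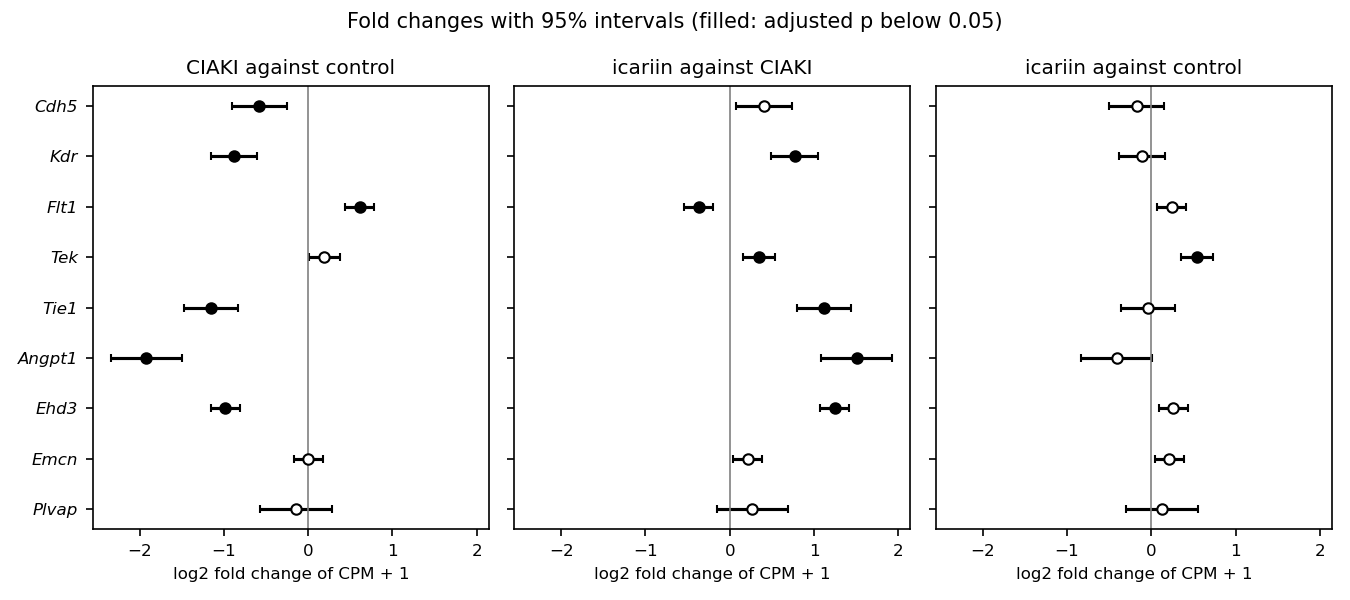
Log2 fold changes of CPM + 1 (x axis) with 95% intervals for the 9 genes (y axis) in the 3 comparisons, from limma on all 9 libraries. Filled points have an adjusted p below 0.05: 6 genes for CIAKI against control, 6 for icariin against CIAKI, and Tek alone for icariin against control.

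Angpt1 stood at 23.9, 23.7 and 22.6 CPM in icariin kidneys, against 6.71, 5.81 and 11 CPM in CIAKI kidneys. The lowest icariin kidney had more than the highest CIAKI kidney, and the log2 fold change was 1.51 (SE 0.19, adjusted p = 0.000468). Tie1 had 64.2, 77.5 and 56.7 CPM in icariin kidneys, against 24.2, 32.3 and 33.3 CPM in CIAKI kidneys (log2 fold change 1.12, SE 0.14, adjusted p = 0.000534). Tek had 130, 127 and 111 CPM in icariin kidneys, against 90.0, 97.9 and 100 CPM in CIAKI kidneys (log2 fold change 0.35, SE 0.08, adjusted p = 0.00937). All 3 genes of the angiopoietin system were thus higher in icariin kidneys, with no overlap. The log2 difference between Tie1 and Tek changed by 0.77 (exact permutation p = 0.1, adjusted p = 0.15), and the ratio of their CPM was 0.493, 0.610 and 0.511 in icariin kidneys, against 0.269, 0.330 and 0.334 in CIAKI kidneys.

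For Angpt2, icariin kidneys spread from 3.81 to 9.64 CPM, around the 4.15 to 5.17 CPM of CIAKI kidneys. Its log2 fold change of 0.44 did not pass (SE 0.27, adjusted p = 0.235), except with icariin kidney 3 left out (adjusted p = 0.025). The ratio of Angpt2 to Angpt1 CPM was 0.404, 0.301 and 0.169 in icariin kidneys, 0.640, 0.890 and 0.378 in CIAKI kidneys and 0.150, 0.281 and 0.203 in control kidneys. Every CIAKI value of this ratio was above every control value, while icariin values overlapped those of both other groups. On the log2(CPM + 1) scale the difference changed by 1.49 in CIAKI against control and by -1.07 in icariin against CIAKI kidneys (exact permutation p = 0.1, adjusted p = 0.15 for each).

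Kdr had 132, 162 and 130 CPM in icariin kidneys, against 81.4, 72.6 and 93.3 CPM in CIAKI kidneys (log2 fold change 0.77, SE 0.12, adjusted p = 0.00149). Flt1 had 113, 121 and 108 CPM in icariin kidneys, against 137, 158 and 148 CPM in CIAKI kidneys (log2 fold change -0.37, SE 0.08, adjusted p = 0.00555). Both receptors separated the groups without overlap, in opposite directions. The ratio of Flt1 to Kdr CPM was 0.858, 0.750 and 0.830 in icariin kidneys, against 1.68, 2.17 and 1.58 in CIAKI kidneys, a change of the log2 difference of -1.14 (exact permutation p = 0.1, adjusted p = 0.15).

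Ehd3 had 48.8, 42.9 and 49.9 CPM in icariin kidneys, against 19.3 CPM in each CIAKI kidney. This was the most certain of the 9 differences by its p (log2 fold change 1.25, SE 0.08, adjusted p = 2.0e-05). Cdh5 had 39.7, 38.8 and 27.2 CPM in icariin kidneys, against 25.7, 27.0 and 25.3 CPM in CIAKI kidneys. Icariin kidney 3 lay just above the CIAKI range while the others lay near control kidneys. The log2 fold change of 0.41 fell short of the threshold (95% interval 0.08 to 0.73, adjusted p = 0.0509). It passed under 8 of 20 alternative settings, among them the fit without icariin kidney 3 (adjusted p = 0.00565).

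Emcn had 55.4, 54.2 and 47.1 CPM in icariin kidneys, against 46.3, 44.5 and 43.8 CPM in CIAKI kidneys. The groups did not overlap, and the log2 fold change of 0.21 had an adjusted p of 0.0522, which passed under 7 of 20 alternatives. Plvap had 165, 154 and 103 CPM in icariin kidneys and 98.2, 144 and 105 CPM in CIAKI kidneys, which overlap (0.27, SE 0.19, adjusted p = 0.284). With icariin kidney 3 left out, Plvap passed (adjusted p = 0.0395). That library was the lowest icariin one for Cdh5, Kdr, Flt1, Tek, Tie1, Angpt1, Emcn and Plvap, though not for Ehd3, and it was also the deepest of the 9. Without it, all 9 genes were called in this comparison, as were 34.1% of all features.

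Per length, 4 of the genes could be set beside each other in the authors' deposited FPKM of selected mRNAs, which cover icariin and CIAKI kidneys. Kdr had 18.1, 22 and 19.5 FPKM in icariin kidneys, against 11.1, 9.69 and 12.9 FPKM in CIAKI kidneys. Ehd3 had 17.8, 15.5 and 18.7 FPKM in icariin kidneys, against 6.64, 6.94 and 7.0 FPKM in CIAKI kidneys. Tie1 had 12.9, 15.5 and 11.6 FPKM in icariin kidneys, against 4.66, 6.43 and 6.68 FPKM in CIAKI kidneys. Angpt1 had 9.88, 9.75 and 9.53 FPKM in icariin kidneys, against 2.66, 2.38 and 4.52 FPKM in CIAKI kidneys. By mean level per length, the order in both groups was Kdr, Ehd3, Tie1 and Angpt1. In icariin kidneys Kdr overlapped Ehd3, and the lowest Ehd3 value lay just above the highest of Tie1. In CIAKI kidneys Kdr lay above the others, and Ehd3 overlapped Tie1.

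Icariin against control set the treated rats beside untreated ones. Tek was called, higher in icariin kidneys, and the other 8 genes were not. In this comparison 0.628% of all features were called (0.4% higher and 0.227% lower). The median log2 fold change was 0.13 for the 9 genes and 0.00 for all features. Tek had 130, 127 and 111 CPM in icariin kidneys, against 78.4, 85.0 and 88.2 CPM in control kidneys, and its order of groups was icariin, CIAKI and control with no overlap between neighbours. The log2 fold change was 0.54 (SE 0.08, 95% interval 0.36 to 0.73, adjusted p = 0.0282). Its size ranged from 0.49 to 0.61 over 20 alternatives, but the call was lost without low-value filtering (adjusted p = 0.0558), with a replicate block (0.0722), without control kidney 1, 2 or 3 (0.117, 0.094 and 0.0971) and without icariin kidney 1 or 2 (0.0974 and 0.104).

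Icariin and control kidneys did not overlap for Angpt1, Flt1, Ehd3 and Emcn either, none of which passed the test. Of all tested features 19.3% had no overlap between these groups. Angpt1 was lower in each icariin kidney (22.6 to 23.9 CPM) than in any control kidney (28.3 to 33.8 CPM), at -0.41 on the log2 scale (SE 0.19, adjusted p = 0.508). Flt1 was higher in each icariin kidney (108 to 121 CPM) than in any control kidney (90.0 to 99.6 CPM), at 0.24 (adjusted p = 0.270). Ehd3 lay at 0.26 (adjusted p = 0.222) and Emcn at 0.21 (adjusted p = 0.340), and DESeq2 on recovered reads called Emcn (adjusted p = 0.0426). Kdr, Tie1, Cdh5 and Plvap overlapped the control range, with log2 fold changes of -0.11, -0.04, -0.17 and 0.13. The Tie1 to Tek ratio of icariin kidneys stayed below that of control kidneys, a change of -0.58 in the log2 difference, and the Flt1 to Kdr ratio stayed above it, at 0.35 (exact permutation p = 0.1 and adjusted p = 0.15 for each).

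Among the ligands and partners of these receptors, 5 of the 10 tested genes fell and 1 rose in CIAKI against control kidneys. Of all features 20.5% fell and 20.8% rose, and Pgf and Angpt4 were too low to test. Vegfd, a ligand of VEGF receptors, fell by 1.23 on the log2 scale (adjusted p = 0.000175). Svep1, an extracellular protein that binds TIE1, fell by 0.90 (adjusted p = 0.000431), and the VEGF and semaphorin co-receptor gene Nrp2 fell by 1.09 (adjusted p = 0.0013). Vegfa, the main ligand of Kdr and Flt1, had 129, 118 and 140 CPM in CIAKI kidneys, against 164, 172 and 155 CPM in control kidneys (-0.34, SE 0.09, adjusted p = 0.0127). Nrp1 was lower by a smaller margin (-0.29, adjusted p = 0.0285), and lost its call without control kidney 1, 2 or 3 or CIAKI kidney 1 (adjusted p = 0.0635, 0.0744, 0.0738 and 0.051). Its call was also lost by edgeR (adjusted p = 0.0574) and with only the 2 groups in the fit (0.0562). Flt4, Vegfb and Vegfc lay between -0.21 and -0.09 and did not pass.

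Ptprb, which encodes the endothelial phosphatase VE-PTP that removes phosphate from TIE2, was the member of that list that rose. It had 224, 242 and 171 CPM in CIAKI kidneys, against 142, 140 and 146 CPM in control kidneys (log2 fold change 0.56, SE 0.13, adjusted p = 0.00784). In icariin kidneys it had 161, 176 and 141 CPM, which overlapped the CIAKI range and was lower by the test (-0.40, adjusted p = 0.0333). That call was lost without CIAKI kidney 1 or 2 (adjusted p = 0.0956 and 0.102) and without icariin kidney 1 or 3 (0.0691 and 0.107). It was also lost without low-value filtering (0.0596) and with only the 2 groups in the fit (0.0711). In icariin against CIAKI kidneys 3 of the list's 10 tested genes rose and Ptprb fell, beside 19.2% and 20.2% of all features. The 3 were Vegfd (0.81), Svep1 (0.59) and Vegfa (0.37, adjusted p = 0.00975), while limma called 0 of the 10 in icariin against control kidneys (3 at an unadjusted p below 0.05, 0 by edgeR and 2 by DESeq2).

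Further endothelial genes were read from lists. Beside the counts of this and the later lists stand the shares of all features called. They were 41.3% in CIAKI against control and 39.4% in icariin against CIAKI kidneys, split about evenly between higher and lower. Of 24 tested pan-endothelial genes, 10 fell and 1 rose in CIAKI against control kidneys (median log2 fold change -0.42), and 10 rose and 1 fell in icariin against CIAKI kidneys (median 0.33). The 11 of 24 called in each comparison are close to those shares. Arhgef15, an exchange factor gene of endothelial cells, lay at -0.86 and 0.87 in the 2 comparisons. The adhesion molecule gene Icam2 lay at -1.02 and 0.94, and Calcrl, the receptor of adrenomedullin, at -0.74 and 0.59. The tight junction gene Cldn5 rose by 0.88 in icariin against CIAKI kidneys. Against these ran Clec14a, an endothelial lectin gene named after its values were seen, at 0.62 and -0.47. Its lower call in icariin kidneys was lost without control kidney 1, CIAKI kidney 1 or 2 or icariin kidney 1 or 3. S1pr1, Mmrn2, Esam, Ramp2, Ecscr and Robo4 had the same signs as Clec14a in both comparisons but did not pass the test. The summed level of the list was 446 to 562 CPM in icariin kidneys, 388 to 438 CPM in CIAKI kidneys and 504 to 530 CPM in control kidneys.

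Genes of particular vessel beds fell in 6 and rose in 2 of 14 tested cases in CIAKI against control kidneys, and rose in 5 and fell in 2 in icariin against CIAKI kidneys. Without control kidney 1 the 6 that fell became 3. The arterial ligand gene Efnb2 lay at -0.92 and 0.71, and its venous receptor gene Ephb4 at -0.49 and 0.40. Gata5, a transcription factor gene of glomerular endothelium in mice, lay at -1.0 and 1.30. It was scarce, at 0.312 to 0.730 CPM in CIAKI kidneys, and met the filter only through icariin and control kidneys. Plat, the tissue plasminogen activator and a further glomerular gene of the list, ran the opposite way, at 0.50 and -0.51 (adjusted p = 0.0115 and 0.0111). Tbx3, listed beside them, did not pass in CIAKI against control kidneys (-0.31, adjusted p = 0.319). Plat and Tbx3 are named after their values were seen. Mmrn1, of lymphatic vessels and platelets, lay at 0.84 and -0.82. Prox1 (-0.80 and 1.04) and Lyve1 (-0.36 and 0.07), also listed for lymphatic vessels, did not pass. Whole-kidney RNA does not tell whether lymphatic vessels were the source of these genes. Of 11 endothelial signalling genes, 4 fell and 1 rose in CIAKI against control kidneys, led by the apelin gene Apln (-1.75, adjusted p = 9.42e-05) and its receptor gene Aplnr (-2.55, adjusted p = 0.000301). The 4 became 2 without CIAKI kidney 1. The gene that rose was Nos3, the endothelial nitric oxide synthase (0.73), and not without control kidney 1 or 2 (adjusted p = 0.0524 and 0.0567). In icariin against CIAKI kidneys 3 of these 11 rose, Aplnr by 1.65, but 1 without CIAKI kidney 2 or icariin kidney 2. In icariin against control kidneys 1 of the 11 was called, Apln. It was lower, at 2.44, 3.13 and 2.28 CPM, against 7.97, 7.65 and 6.18 CPM in control kidneys. That call was lost without low-value filtering (adjusted p = 0.0624), without control kidney 1 or 2 (0.0766 and 0.0767) and without icariin kidney 1 or 3 (0.057 and 0.0696).

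Activation and anticoagulant genes of the endothelium rose in 3 of 6 tested cases and fell in 1 in CIAKI against control kidneys. Procr, the endothelial protein C receptor, lay at 1.59 (adjusted p = 0.000409) and the endothelin gene Edn1 at 1.12 (adjusted p = 0.00449). Vcam1, an adhesion molecule of activated endothelium, fell by 1.12 (adjusted p = 0.000636). The adhesion molecule gene Icam1 was near the threshold (0.71, adjusted p = 0.0481) and lost its call when any 1 control or icariin kidney was left out (0.0613 to 0.116). That call was also lost with a pseudocount of 5 (0.0521), without low-value filtering (0.081), with other scalings (0.0516 to 0.067) and with only the 2 groups in the fit (0.0843). In icariin against CIAKI kidneys 3 of the 6 fell, Procr (-1.68), Edn1 (-0.99) and Icam1 (-0.77, adjusted p = 0.0372). The Icam1 call was lost when any 1 control or icariin kidney was left out (0.0521 to 0.102). It was also lost without low-value filtering (0.0654) and with only the 2 groups in the fit (0.0741). Vcam1 rose by 0.50 (adjusted p = 0.0295), a call lost without CIAKI kidney 1 (0.0756) or icariin kidney 2 or 3 (0.104 and 0.058). The Vcam1 call was also lost without low-value filtering (0.0501) and with only the 2 groups in the fit (0.0631). Tubular cells also express some of these genes, and whole-kidney RNA does not tell their sources apart.

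**Figure D4:**
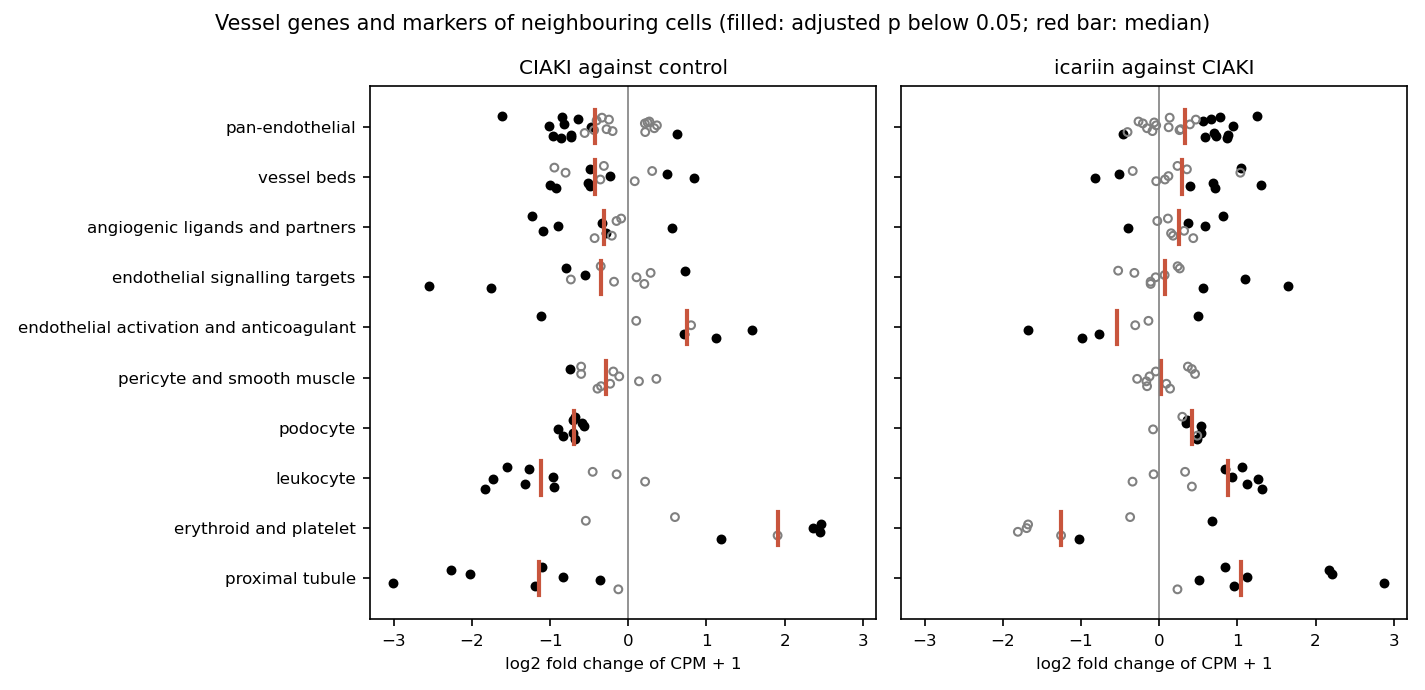
Log2 fold changes of CPM + 1 (x axis) of the tested genes of 10 lists (y axis) in CIAKI against control and icariin against CIAKI kidneys. Each point is a gene, filled where the adjusted p is below 0.05, and the red bar is the list's median, which for pan-endothelial genes is -0.42 and 0.33.

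Markers of neighbouring cells moved with the same groups. All 8 podocyte genes fell in CIAKI against control kidneys (median -0.70), and their summed level was 716 to 919 CPM in icariin kidneys, 588 to 616 CPM in CIAKI kidneys and 917 to 997 CPM in control kidneys. Of 10 tested leukocyte genes 7 fell (median -1.12), with sums of 97.1 to 141 CPM in icariin kidneys, 56.2 to 73.1 CPM in CIAKI kidneys and 143 to 161 CPM in control kidneys. Among the 7, Cd3e met the filter only through control kidneys, where it had 1.00, 1.21 and 1.39 CPM. It had 0.228, 0.163 and 0.031 CPM in CIAKI kidneys. Pericyte and smooth muscle genes changed in 1 of 10 cases in CIAKI against control kidneys (median -0.29). Their sums overlapped, at 255 to 368 CPM in icariin kidneys, 238 to 346 CPM in CIAKI kidneys and 304 to 433 CPM in control kidneys. The gene that changed was Rgs5 of pericytes (-0.74, adjusted p = 0.0214), a call lost without control kidney 1 or 3 (0.055 and 0.0675) or CIAKI kidney 1 or 2 (0.0726 and 0.0622). In icariin against CIAKI kidneys 5 of 8 podocyte and 6 of 10 leukocyte genes rose, and the 5 became 3 without CIAKI kidney 2 or icariin kidney 2 and 2 without icariin kidney 1.

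Tubule and blood markers differed too. Of 8 proximal tubule genes 7 fell in CIAKI against control kidneys, with sums of 20395 to 22148 CPM in icariin kidneys, 8429 to 11398 CPM in CIAKI kidneys and 20669 to 24575 CPM in control kidneys. Erythroid and platelet genes rose in 4 of 7 cases, but in 1 by edgeR and in 1 without control kidney 2 or 3 or CIAKI kidney 1, 2 or 3. The gene that kept its call, Ahsp, would not have met the filter without CIAKI kidneys, where it had 1.98, 3.28 and 1.85 CPM. Control kidneys had 1.22, 0.158 and 0.198 CPM of Ahsp. The sum of the erythroid and platelet genes was 2130 to 2606 CPM in CIAKI kidneys, while it spread from 218 to 1454 CPM in icariin kidneys and from 256 to 1437 CPM in control kidneys. No marker found of these lists was at 0 in all 9 libraries. The part of each of these lists in the results above was not tested.

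Across the 9 libraries, the genes of the set were compared with their own mean profile, standardised gene by gene. Pearson's r with that profile was 0.88 for Tie1, 0.85 for Ehd3, 0.81 for Cdh5, 0.80 for Kdr, 0.77 for Emcn, 0.75 for Angpt1, 0.73 for Plvap and 0.56 for Tek, and -0.52 for Flt1, the gene that ran against the others. Each gene is itself part of the profile, and the 9 points share the 3 groups. Outside the set, the Ensembl genes most like it were Itpkb (r = 0.98), Car11 (0.97), S100a1, Zdhhc1, Lmf2 and Dctn1. Itpkb, an inositol trisphosphate kinase, had 58.7, 57.3 and 46.9 CPM in icariin kidneys, 35.6, 36.5 and 37.3 CPM in CIAKI kidneys and 50.3, 47.3 and 49.5 CPM in control kidneys. It was lowest in CIAKI kidneys, as were Angpt1, Tie1, Ehd3, Kdr and Cdh5, and among icariin kidneys it was lowest in kidney 3.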

How the data were processed

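RNA of whole kidneys of 9 rats, 3 per group, was sequenced. The series design calls the rats of a group separate animals. The submitters' processing notes name Bowtie 0.12.2 and mm8. That build is a mouse one, yet gene identifiers are rat Ensembl ones, so the reference is not settled here. Not given in the sources used here are the counter and its treatment of strand and shared reads.

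Gene values were deposited in CPM by the authors. Their steps gave whole reads for 100% of values, with a tolerance of 0.1, and these equalled all 23850 read counts compared in the authors' deposited table of selected mRNAs, which also holds FPKM per the file headers. Libraries held 64380578 to 90398405 such reads.

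The 16731 of 36267 features that reached 1 CPM in 3 or more libraries were tested with limma 3.58.1 (trend, R 4.3.3) on log2(CPM + 1), with group as factor and all 9 libraries, two-sided, Benjamini-Hochberg adjusted per comparison, with calls below 0.05. The test was tested on simulated data. Within-library log2 differences were compared by exact two-sided permutation tests. The planned mean of Pecam1 and Cdh5 became Cdh5 alone, as no row carries the symbol Pecam1, and a pan-endothelial mean was added after seeing the data. There were 20 alternatives: pseudocounts, filters, scalings, sample sets, a replicate block, edgeR 4.0.16 and DESeq2 1.42.0 on recovered reads, and leaving out each library.

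Genes and lists were chosen with earlier results of these data known. Named were all members, every listed ligand or partner, up to 4 called genes of smallest p per other list and comparison, and the 6 genes most correlated with the mean profile.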

Additional observations from a re-analysis of the deposited data

How the results depend on the processing

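All 20 alternatives kept 6 of the 9 genes called in CIAKI against control kidneys, and none of 540 values of these genes reversed a call. In icariin against CIAKI kidneys between 6 and 9 of the 9 were called. In icariin against control kidneys, where Tek alone was called, the count of the 9 genes was 0 without a filter, 0 with the replicate block and 2 with DESeq2 on recovered reads, and 0 to 1 with a library left out. Over all features in that comparison 105 were called, against 52 without a filter, 76 with edgeR, 523 with DESeq2 and 31 to 127 with a library left out. The cause was not tested.

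Same-numbered libraries correlated at -0.035 to 0.081 in their deviations from group means, and libraries of different numbers at -0.102 to 0.036. With 3 kidneys per group, these values cannot decide whether replicate numbers pair the samples. With the number as a block, 6678, 6314 and 73 features were called in the 3 comparisons and 6, 6 and 0 of the 9 genes.

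Of 354 log2 differences between genes under alternatives, 350 kept their sign, and 5 moved by more than the spread between replicates, all with the pan-endothelial mean in place of Cdh5. The exceptions in sign were small: Kdr against Cdh5 in icariin against control kidneys (-0.05 without icariin kidney 3, and -0.07 with the pan-endothelial mean), Tek (0.02 with that mean, icariin against CIAKI) and Plvap (0.00 without CIAKI kidney 2, icariin against CIAKI).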
